A study of Mus musculus with 12 samples.

Results

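Peaks of Ctr9 in NIH3T3 cells were divided into those that overlapped a peak of histone H3 lysine 27 acetylation (H3K27ac) in the same cell line by at least 1 bp and those that did not. The Ctr9 list held 22015 peaks on assembled chromosomes, of 122402 peaks in the 7 ChIP-seq lists of the series. Of these Ctr9 peaks, 4780 (21.7%, 95% interval 21.2 to 22.3) overlapped H3K27ac and 17235 (78.3%) did not. NIH3T3 is an established line of mouse embryonic fibroblasts. The Ctr9 cells carried a GFP tag at the C-terminus of Ctr9, placed by CRISPR, and were a sorted pool of GFP-positive cells rather than a clone, so Ctr9 was precipitated with an antibody against GFP. H3K27ac was precipitated from NIH3T3 cells with an antibody against the mark itself. The NIH3T3 cells were grown in GMEM with serum and LIF, the medium also used for the mouse embryonic stem cells (mESCs) of the study, and received no treatment. The mESCs, used below for comparison, were of the E14TG2a line. Their Ctr9 was likewise tagged with GFP by CRISPR and precipitated from a sorted pool. Ctr9, H3K27ac and mRNA were each measured in 1 library of NIH3T3 cells and 1 of mESCs. No test between groups was therefore possible and no p-value is given. Intervals are exact binomial ones, or order-statistic ones for medians, at 95%. They cover counting error only, and peaks of 1 library are not replicates.

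Ctr9 is the large scaffold subunit of the Paf1 complex, which travels with RNA polymerase II and takes part in its elongation. The complex is also required for histone modifications of transcribed genes. Reports from different cell lines disagree on whether it maintains the promoter-proximal pause of the polymerase or promotes release from it. H3K27ac is placed by the acetyltransferases p300 and CBP on nucleosomes that flank active promoters and enhancers. Fibroblasts transcribe large amounts of collagen, matrix, actin and immediate early genes, which makes promoters, enhancers and long transcribed bodies all visible in 1 cell line.

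For 3 places, the sequence under a strong Ctr9 summit of each class is shown as an example. These sequences let the base composition be seen beside the counts given later. Each is 300 bases of the forward strand of GRCm38 (mm10) from RefSeq, centred on the summit, with every CpG in capitals. Peaks whose window met an annotated untranslated region or mRNA exon were passed over. The peaks shown are not always the strongest of their class and place. Outside genes, the peaks with H3K27ac at Mto1 and Eef1a1 (fold 39.4) and at Ncl (35.2) were stronger than the one shown at Neat1 (22.0). The first 3 lie at Ctr9 peaks with H3K27ac: 214 bps upstream of the start of Polg2, the accessory subunit of the mitochondrial DNA polymerase; inside the body of Txnrd1, a thioredoxin reductase; and at Neat1, the noncoding RNA that builds paraspeckles.
Polg2 start, with H3K27ac, chr11:106779601-106779900: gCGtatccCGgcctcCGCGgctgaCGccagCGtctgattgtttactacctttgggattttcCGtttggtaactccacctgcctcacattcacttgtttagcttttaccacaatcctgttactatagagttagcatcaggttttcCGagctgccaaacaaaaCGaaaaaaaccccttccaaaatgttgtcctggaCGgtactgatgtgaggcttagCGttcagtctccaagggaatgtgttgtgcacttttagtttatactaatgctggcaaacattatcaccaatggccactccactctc
Txnrd1 body, with H3K27ac, chr10:82859706-82860005: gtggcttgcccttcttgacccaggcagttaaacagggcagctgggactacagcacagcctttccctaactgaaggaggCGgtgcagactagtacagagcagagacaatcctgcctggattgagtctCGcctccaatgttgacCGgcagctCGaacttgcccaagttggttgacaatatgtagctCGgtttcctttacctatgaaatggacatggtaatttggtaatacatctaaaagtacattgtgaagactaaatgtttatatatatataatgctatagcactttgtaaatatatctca
Neat1, with H3K27ac, chr19:5844772-5845071: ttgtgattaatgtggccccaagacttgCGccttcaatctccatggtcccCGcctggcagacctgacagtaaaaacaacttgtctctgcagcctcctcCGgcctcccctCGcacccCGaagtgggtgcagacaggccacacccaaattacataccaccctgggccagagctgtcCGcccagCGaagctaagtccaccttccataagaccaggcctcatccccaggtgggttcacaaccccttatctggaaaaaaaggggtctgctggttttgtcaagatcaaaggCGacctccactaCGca
The other 3 lie at Ctr9 peaks without H3K27ac: 476 bps upstream of the start of Lin7b, in the body of Hspa8, the constitutive Hsc70 chaperone, and 1133 bps past the end of Prrx1, a mesenchymal homeobox factor.
Lin7b start, without H3K27ac, chr7:45370909-45371208: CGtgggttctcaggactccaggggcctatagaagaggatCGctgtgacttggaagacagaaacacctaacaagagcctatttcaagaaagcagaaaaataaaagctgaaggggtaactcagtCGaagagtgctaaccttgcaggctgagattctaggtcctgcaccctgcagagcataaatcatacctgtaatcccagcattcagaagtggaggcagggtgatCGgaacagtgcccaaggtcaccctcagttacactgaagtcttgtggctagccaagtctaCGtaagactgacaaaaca
Hspa8 body, without H3K27ac, chr9:40806865-40807164: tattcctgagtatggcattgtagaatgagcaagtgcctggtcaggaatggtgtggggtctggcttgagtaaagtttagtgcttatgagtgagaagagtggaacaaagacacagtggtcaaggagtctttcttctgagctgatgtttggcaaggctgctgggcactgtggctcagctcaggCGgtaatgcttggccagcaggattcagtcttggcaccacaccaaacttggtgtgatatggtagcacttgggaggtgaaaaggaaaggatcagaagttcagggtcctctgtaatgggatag
Past the Prrx1 end, without H3K27ac, chr1:163243836-163244135: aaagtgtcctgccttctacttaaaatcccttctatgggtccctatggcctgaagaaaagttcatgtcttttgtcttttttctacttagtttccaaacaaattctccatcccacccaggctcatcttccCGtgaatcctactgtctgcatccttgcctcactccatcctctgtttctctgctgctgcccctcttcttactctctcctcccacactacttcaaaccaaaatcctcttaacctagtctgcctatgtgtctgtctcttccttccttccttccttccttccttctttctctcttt
The windows with H3K27ac held 11, 5 and 9 CpG, and those without held 5, 1 and 1. These windows were selected, so their counts are examples and not a comparison of the classes.

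The division between the classes was seldom a matter of a few bases. Of the Ctr9 peaks with H3K27ac, 52.0% lay wholly inside an H3K27ac peak, 92.1% met 1 H3K27ac peak only, and 58 overlapped by less than 50 bps. Of those without, 53 had an H3K27ac peak within 50 bps, 7.79% had one within 1000 bps and 57.7% lay over 10 kb from the nearest one. By bases, 18.2% of the Ctr9 peaks was inside H3K27ac peaks, which cover 0.839% of the genome, a ratio of 21.7.

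Ctr9 peaks with H3K27ac were wider and slightly more enriched than those without. Median width was 507 bps (487 to 524) with H3K27ac and 382 bps (379 to 387) without. Median fold enrichment over background, the value macs2 gives at the summit, was 4.50 (4.40 to 4.53) with and 4.20 (4.18 to 4.23) without. The highest fold was 47.8 with H3K27ac and 31.7 without. In total bases the order turned, as the peaks without H3K27ac covered 11.0 Mb and those with it 5.40 Mb. Since a wider peak has more bases that can meet an H3K27ac peak, the share was also read within classes of width. It was 16.1% for Ctr9 peaks of up to 250 bps and 44.5% for those over 2000 bps. Within 1 kb of gene starts it moved little with width, from 82.5% to 89.9%, while in gene bodies it went from 9.58% to 43.0% and near gene ends from 4.40% to 38.0%. At equal width the median folds were 4.02 with and 4.02 without at 250 to 400 bps, and 9.05 with and 7.06 without over 2000 bps. Among the widest peaks near ends they were 14.3 with and 7.55 without. Across the 4780 Ctr9 peaks with H3K27ac, Ctr9 fold and the fold of the strongest H3K27ac peak met had a Spearman rho of 0.217 and a Pearson r of 0.217. These points come from the same pair of libraries.

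**Figure D1:**
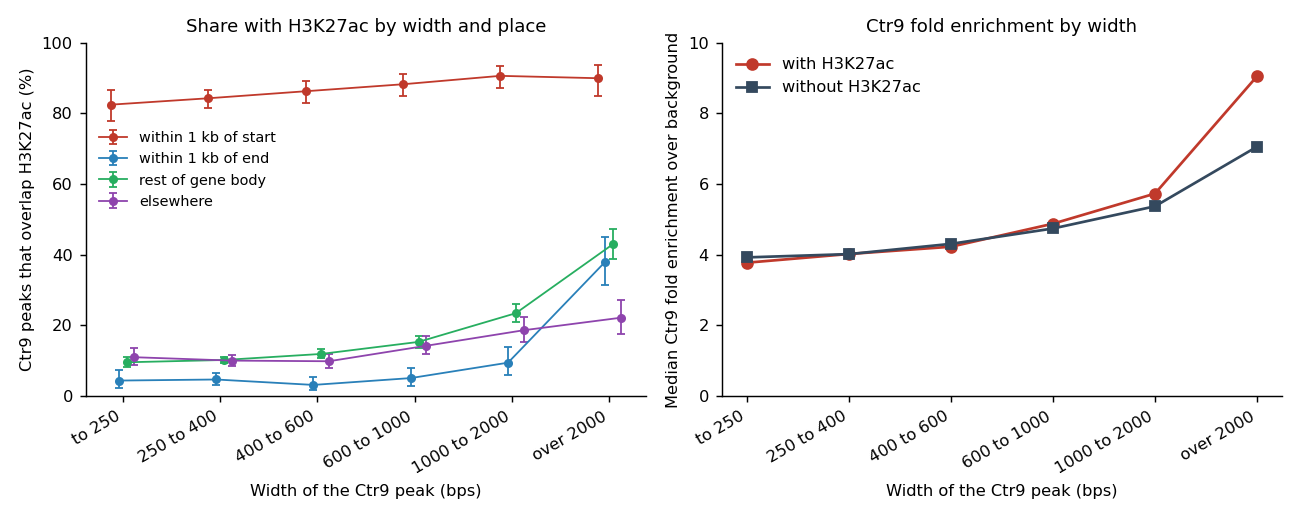
Left, share of Ctr9 peaks that overlap H3K27ac (%) by peak width (bps) and place, with exact 95% intervals; right, median Ctr9 fold enrichment over background in the same width classes for peaks with (circles) and without (squares) H3K27ac. Near starts the share stays between 82.5% and 90.6%, whereas at the other places it is below 16% up to 1000 bps and highest over 2000 bps.

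Each Ctr9 summit was assigned to the first of these places that applied, for protein-coding genes: a start (up to 1 kb away), an end (up to 1 kb away), the remaining body, or elsewhere. Peaks with H3K27ac sat at starts (2300 of 4780, 48.1%, or 27.3% when starts reach only 500 bps) and in bodies (36.1%). Peaks without it sat mainly in bodies (62.9%) and elsewhere (23.3%), with 11.7% at ends and only 2.10% at starts. Seen from the places, 86.4% of the Ctr9 peaks at starts overlapped H3K27ac (85.0 to 87.7), against 8.09% at ends (6.98 to 9.31), 13.7% in bodies (13.1 to 14.3) and 12.6% elsewhere (11.6 to 13.6). The intervals at starts and at the other places do not overlap.

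The share was lower further along the gene. It was 93.0% for summits 250 to 500 bps inside the start and 67.0% for those 750 to 1000 bps before it. With each gene body divided into 10 equal lengths, it went from 44.7% in the one nearest the start to 4.54% in the one nearest the end. By distance it was 60.3% at 1000 to 2000 bps into the body and 10.0% at 5000 to 10000 bps. It was lowest at 20000 to 50000 bps, 6.66%, and 8.86% beyond 50000 bps. Body summits within 1 kb of a transcript start inside the gene overlapped H3K27ac in 56.5% of cases (537 of 951), and other body summits in 10.2%. Past gene ends the share was 5.92% at 1 to 5 kb, and 23.8% beyond 20 kb. Upstream of starts it was 26.9% at 1 to 5 kb, and 45.3% beyond 20 kb.

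**Figure D2:**
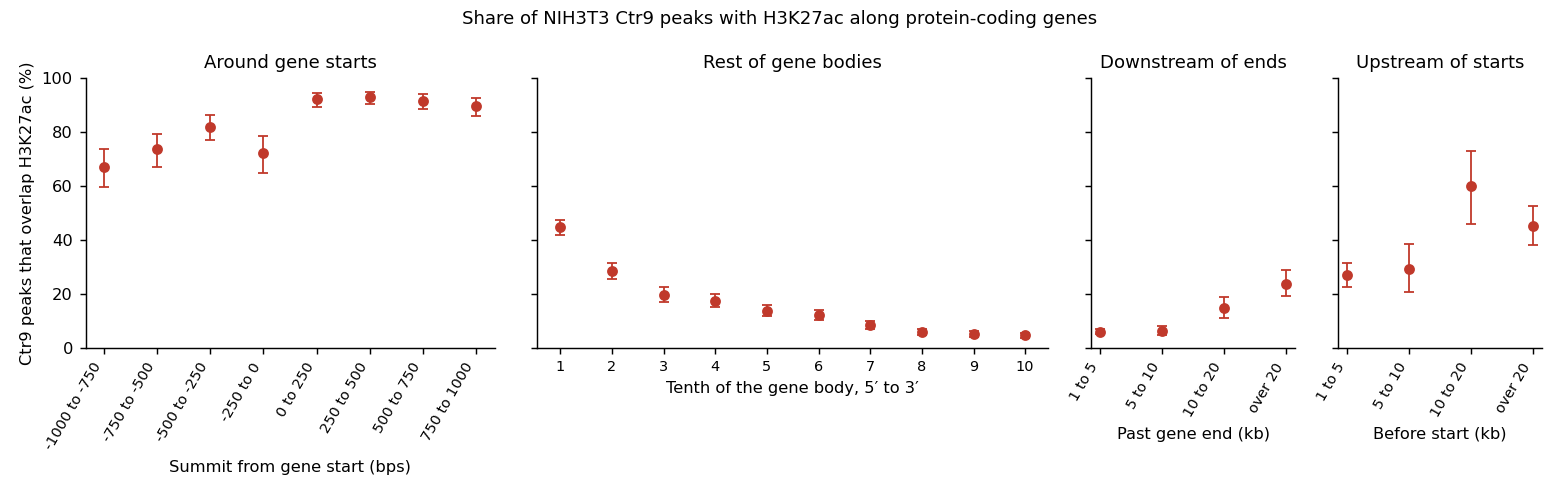
Share of Ctr9 peaks that overlap H3K27ac (%) by summit position: around gene starts (bps), in 10 equal lengths of the gene body, past gene ends and before gene starts (kb). Points are shares with exact 95% intervals; the share is at least 89.6% in the first 1000 bps of genes and 4.54% in the last of the 10 lengths.

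The classes also lay on different sides of genes. Near starts, 72.4% of the summits with H3K27ac were downstream of the start, at a median of 278.5 bps, against 40.9% of those without, at a median of −198.5 bps. Of the 362 start peaks without H3K27ac, 327 (90.3%) lay in the body of another gene or up to 10 kb past its end, against 52.3% of those with H3K27ac. The genes whose starts these were had a median mRNA level of 0.812 TPM (kallisto's abundance corrected for transcript length and library size, 281 genes) without H3K27ac and 24.3 TPM (1916 genes) with it. Outside genes, 80.2% of the peaks without H3K27ac were within 10 kb downstream of a gene end, against 39.1% of those with it. Genes with a Ctr9 peak at their end had a median of 28.1 TPM without H3K27ac (25.4 to 30.6, 1544 genes) and 41.8 TPM with it (26.8 to 61.7, 166 genes), and these intervals overlap.

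The strongest peaks of the classes lay at different genes. The 8 strongest with H3K27ac were at Egr1 (fold 47.8), an immediate early zinc-finger factor, Rpl3 (40.9), a ribosomal protein, Mto1 and Eef1a1 (39.4), a tRNA modification enzyme beside the elongation factor, Gys1 and Ftl1 (39.1), glycogen synthase beside ferritin light chain, Ncl (35.2), nucleolin, Jun (33.3), an AP-1 subunit, Eif1 (31.1), an initiation factor, and Polg2 and Ddx5 (28.6), the latter an RNA helicase. The 8 strongest without H3K27ac were at Hspa8 (31.7), Prrx1 (29.2), Tspan11 (23.7), a tetraspanin, Fn1 (18.8), fibronectin, Srsf3 (18.3), a splicing factor, Hmga2 (17.0), an architectural chromatin protein, Rbpj (16.7), the Notch effector, and Gramd2 and Pkm (16.7), the latter pyruvate kinase. At Prrx1, Tspan11, Fn1, Srsf3, Hmga2 and Rbpj the summit lay past the end of the gene, by 0.491 to 7.33 kb. Summits past the gene end also occurred with H3K27ac, at Rpl3, Mto1, Gys1 and Ncl, by 0.582 to 1.73 kb. The widest peak with H3K27ac ran for 56435 bps over Fam227b and Fgf7, a fibroblast growth factor gene, followed by Tra2b with 33488 bps. H3K27ac covered only 2.82% of the former peak and 5.09% of the latter. The widest without were at Prrx1 (31100 bps), Hmga2 (28838 and 24668 bps), Fn1 (21894 bps) and the region of Mir31 (21018 bps). Among the 200 strongest peaks of each class, 62 with H3K27ac and 8 without were at starts, and 33 and 79 were elsewhere. At ends the counts were close, 49 with and 47 without, and in bodies they were 56 and 66.

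The mRNA level differed between genes by the Ctr9 peaks they carried. A gene was given the peaks from 1 kb before its start to 5 kb past its end, and the TPM of its highest transcript. Of 21905 protein-coding genes, 17.2% had a Ctr9 peak with H3K27ac and 25.8% a Ctr9 peak of either class. The 2268 genes with both classes had a median of 29.9 TPM (27.8 to 32.0). The 1494 genes with peaks only with H3K27ac had 11.4 TPM (10.5 to 12.6) and the 1882 with peaks only without it 13.6 TPM (12.3 to 15.1). Genes with H3K27ac and no Ctr9 (6759) had 6.76 TPM (6.49 to 7.07), and genes with neither mark (9502) had a median of 0. The genes of both classes stood above the other groups by more than the intervals, while the groups with 1 class overlapped. Genes of both classes also held more Ctr9 peaks, a median of 5, against 1 for genes only with H3K27ac and 2 for those only without. A gene needs at least 2 peaks to hold both classes. Whether the number of peaks goes with the higher TPM was not tested. Among genes of high expression (at least 23.5 TPM), 47.9% had a Ctr9 peak with H3K27ac, 65.8% one of either class, and 17.9% peaks only without H3K27ac. At 0 TPM these were 1.76% with H3K27ac and 2.76% only without. Of expressed genes with Ctr9, a peak with H3K27ac was present in 72.8% of those of high expression, 67.1% of those of medium expression and 50.5% of those of low expression (below 0.767 TPM).

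**Figure D3:**
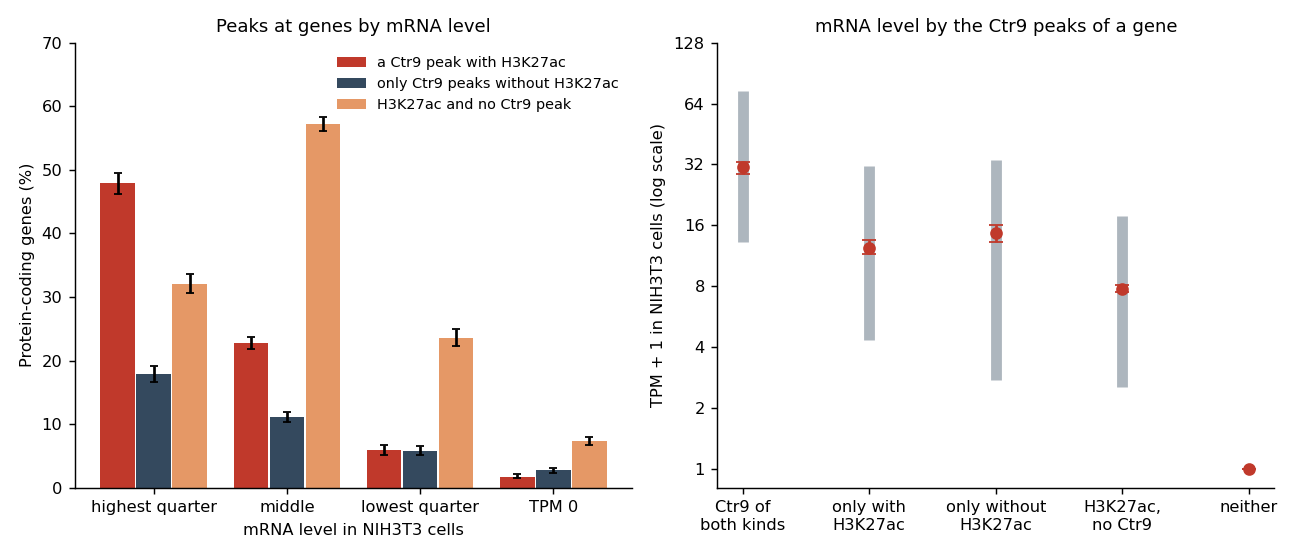
Left, share of protein-coding genes (%) with each kind of peak by mRNA level in NIH3T3 cells, where the upper and lower groups of expressed genes are those of high and low expression, with exact 95% intervals; right, TPM + 1 (log axis) by the Ctr9 peaks of a gene, with medians and their intervals (points) and the middle 50% of genes (bars). Genes with both classes of Ctr9 peak have the highest median, 29.9 TPM, and also the most Ctr9 peaks (median 5).

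Against mESCs, 4.98% of all genes had a TPM at least 4-fold higher in NIH3T3 cells and 5.35% at least 4-fold lower, on TPM + 1. The higher share was 10.4% for genes with both classes of Ctr9 peak, 7.76% for those only with H3K27ac, 8.34% for those only without, and 7.55% for genes with H3K27ac and no Ctr9. The intervals of the groups with 1 class (6.46 to 9.24 and 7.13 to 9.68) overlap.

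Cell type markers were read in the RNA-seq library alone, which says nothing of the ChIP libraries. All 8 fibroblast markers were at 39.6 TPM or above, with a sum of 5259 TPM against 431 in mESCs. The 5 embryonic stem cell markers summed to 0.511 TPM, with 4 at 0, the 6 epithelial ones to 0.120 and the 6 blood ones to 2.45. On the longer gene lists described next, Klf4 was at 26.3 TPM, Tbx3 at 10.1 TPM and Cd68 at 3.78 TPM, while the fibroblast list members Eng and Loxl2 were at 0.108 and 0.0318 TPM (6.18 and 25.6 TPM in mESCs). These 5 genes were chosen after their values were seen.

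Of 97 genes on 6 fibroblast lists, 55 (56.7%) had a Ctr9 peak with H3K27ac, beside 17.2% of all genes. A further 18 had only peaks without and 24 had none. The 97 genes held 141 peaks with and 619 without, so 18.6% of their peaks overlapped H3K27ac, near the 21.7% of all Ctr9 peaks. Of the 97, 74 were in the group of high expression, and 48 of these (64.9%) had a Ctr9 peak with H3K27ac, beside 47.9% of all genes in that group.

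Collagens are the main fibrous proteins of the matrix. Of 12 genes, 3 had a Ctr9 peak with H3K27ac, 4 only without and 5 none, beside 17.2% of all genes with the first kind, for 8 peaks with and 114 without, or 6.56% with against 21.7% of all Ctr9 peaks. Of the 10 collagens of high expression, 3 (30%) had a peak with H3K27ac, beside 47.9% of all genes of high expression. Col1a2 (1082 TPM) had 2 peaks with H3K27ac, at 1.74 and 5.76 kb from its start with folds of 11.9 and 4.52. Its 8 peaks without began at 6.80 kb, and the strongest had a fold of 13.9 at 37.1 kb, just past the end of the 36.7-kb gene, where the peak spans chr6:4526671-4542940. Col1a1 (901 TPM) had 4 of each, intermixed along its body, with the strongest with H3K27ac at 12.9 kb (7.95). Col6a1 (433 TPM) had no peak with H3K27ac and 7 without, from 12.3 kb on, although H3K27ac reached a fold of 17.5 at the gene. Col5a1 (94.5 TPM) had 2 with and 62 without, which began at 47.4 kb and ended past the gene at 157.0 kb.

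Matrix genes and matrix enzymes numbered 25, of which 13 had a Ctr9 peak with H3K27ac, 4 only without and 8 none. Of the 20 of high expression, 13 (65%) had one with H3K27ac, beside 47.9% of all genes of high expression. Bgn (1167 TPM), a small matrix proteoglycan, had 6 peaks without and none with. Sparc (766 TPM), a matricellular glycoprotein, had 2 with, at 4.44 and 5.20 kb, and 12 without, from 6.54 kb on. Lox (716 TPM), which cross-links collagen, had 6 with, up to 5.64 kb, and 5 without, from 6.80 kb on. At Sparc and at Lox the peaks with H3K27ac all came before those without. Fn1 (406 TPM) had 3 with, between −0.632 and 2.14 kb, and 7 without, between 12.7 and 69.1 kb, with the strongest (18.8) at the far end.

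Actin and contractile genes had 10 of 16 members with a Ctr9 peak with H3K27ac, 2 only without and 4 with none. Among members of high expression, 9 of 13 (69.2%) had one with H3K27ac, beside 47.9% of all genes of high expression. Tpm4 (615 TPM), a tropomyosin, had 5 with, between 1.25 and 23.1 kb, and 4 without, between 15.8 and 20.6 kb. The peak at 23.1 kb and 2 of those without lay past the end of this 18.2-kb gene. Myh9 (236 TPM), non-muscle myosin heavy chain, had 6 with, between 37.0 and 65.2 kb, and 33 without, and its first Ctr9 peak lay at 19.7 kb. Tagln2 (198 TPM), an actin-binding protein, had 2 with, the stronger at fold 9.66, and 1 without.

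Mesenchymal transcription factors had 7 of 16 members with a Ctr9 peak with H3K27ac, 5 only without and 4 with none. In the group of high expression, 5 of 8 (62.5%) had one with H3K27ac, beside 47.9% of all genes in that group. Prrx1 (183 TPM) had 7 with, from 2.34 to 32.9 kb, at folds of 3.78 to 10.4, and 5 without, the strongest at 69.7 kb. Cebpb (153 TPM), a bZIP factor, had 2 with and none without. Twist2 (59.3 TPM), a bHLH factor, had 4 with and 15 without.

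AP-1 and immediate early genes are induced within minutes of a growth signal. All 12 had a Ctr9 peak with H3K27ac, beside 17.2% of all genes, and none had only peaks without. They held 23 peaks with and 15 without, or 60.5% with against 21.7% of all Ctr9 peaks. The 8 of high expression thus all had one with H3K27ac, beside 47.9% of all genes of high expression. Fosl1 (106 TPM) had 3 of each, with H3K27ac at 0.585, 9.56 and 11.0 kb and without between 5.33 and 7.60 kb. The peaks at 9.56 and 11.0 kb lay past the end of this 8.40-kb gene. Ier3 (105 TPM) had 2 with and none without. Junb (82.9 TPM) had 2 with, of which the stronger had a fold of 10.8, and none without. These genes are short, with a median length of 4.70 kb against 96.2 kb for the collagens. Fos at 3.27 TPM and Fosb at 0.486 TPM also had 2 and 1 with, at folds of up to 15.2 and 14.2. Fosl2, 22.0 kb long, had 5 with, up to 7.18 kb, and 6 without, from 7.94 kb on.

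Surface and cytoskeletal markers had 10 of 16 members with a Ctr9 peak with H3K27ac, 3 only without and 3 with none. At high expression it was 10 of 15 (66.7%) with H3K27ac, beside 47.9% of all genes of high expression. S100a4 (3337 TPM), a calcium-binding protein, had 1 with (fold 11.5) and none without. Lgals1 (1911 TPM), galectin-1, had 2 with. Vim (1829 TPM), the intermediate filament vimentin, had 3 with, up to 2.47 kb (fold 17.4), and 4 without, from 5.56 kb on.

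**Figure D4:**
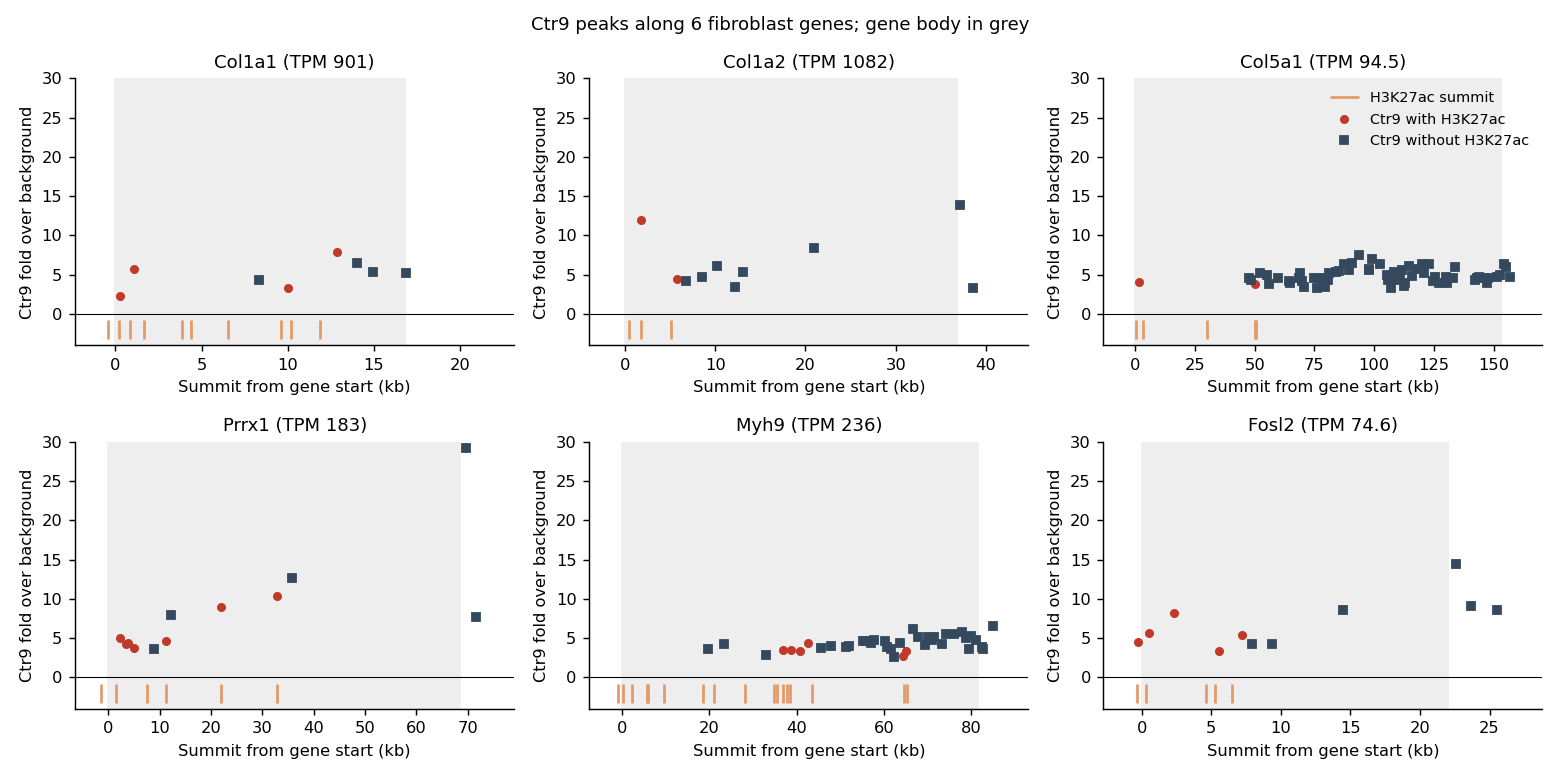
Ctr9 fold over background against the distance of the summit from the gene start (kb) at 6 fibroblast genes, with (circles) and without (squares) H3K27ac; ticks mark H3K27ac summits and grey the gene body. At Col1a2 and Fosl2 all peaks with H3K27ac precede those without, whereas at Col1a1, Prrx1, Col5a1 and Myh9 the classes alternate.

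Lists of other cell types were read against the 25.8% of all genes with Ctr9. Of 12 pluripotency genes, 2 (16.7%) had Ctr9, where Klf4 had 3 peaks with and 3 without and Tbx3 had 2 without. None of 10 epithelial genes had a Ctr9 peak. Of 10 blood cell genes, 2 (20.0%) had Ctr9, where Cd68 had 2 with and Csf1r 1 without. The Cd68 summits lay at −5.63 and 2.89 kb from the start of this 1.94-kb gene, so neither was inside it. Of 12 housekeeping genes, 10 had a peak with H3K27ac, none only without and 2 none. All 12 were of high expression, where 47.9% of all genes had a peak with H3K27ac. Eef1a1 (8791 TPM) had 1 with (39.4), past its end. Ppia (3083 TPM), cyclophilin A, had 1 with (16.4, at 0.898 kb) and 3 without.

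The genes with the most peaks of each class included long ones, though Lmna was of 29.8 kb. Med13l, a Mediator subunit, had 1 peak with H3K27ac at 31.8 kb and 133 without, of which 3 lay past the end of the 205-kb gene. Asap1, an Arf GTPase activator, had 20 with and 159 without, Tgfbr3, betaglycan, 21 with and 100 without, and Prkca, protein kinase C alpha, 5 with and 94 without. Lmna, lamin A/C, had 11 with and 8 without, 3 of the latter past the end of the 29.8-kb gene, and Nfix, a nuclear factor I gene, 11 with and 25 without. Gm20388, an annotated readthrough gene of 4435 kb that spans other genes, had 28 with and 101 without, and its peaks are also those of the genes it spans.

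The classes differed in base composition, and most at starts. Windows of 300 bases at the summits held a median of 8 CpG with H3K27ac and 3 without, and GC was 53.0% and 47.0%. At starts the medians were 18 CpG with and 5 without, against 7 over all RefSeq promoters of the same length. In bodies they were 5 and 3, elsewhere 4 and 3, and at ends 4 and 3. An observed to expected CpG ratio of at least 0.6 was found in 39.1% of windows with H3K27ac and 1.30% of those without. The AP-1 motif TGANTCA, which is its own reverse complement, was found in 7.01% of windows with H3K27ac (6.30 to 7.77), 8.11% without (7.70 to 8.52) and 7.81% of promoters. Away from starts and ends it was 9.42% with and 8.23% without, and 10.0% at H3K27ac peaks without Ctr9. The RUNX motif (TGTGGT or ACCACA) was found there in 20.2% with and 24.6% without, against 16.8% of promoters, the TEAD motif (CATTCC or GGAATG) in 15.2% and 15.7%, against 14.7%, the NF-Y box (CCAAT or ATTGG) in 29.2% and 33.6%, against 37.4%, and the poly(A) signal (AATAAA or TTTATT) in 19.8% and 25.5%, against 19.6%. A match is a description of the letters and not a bound site.

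**Figure D5:**
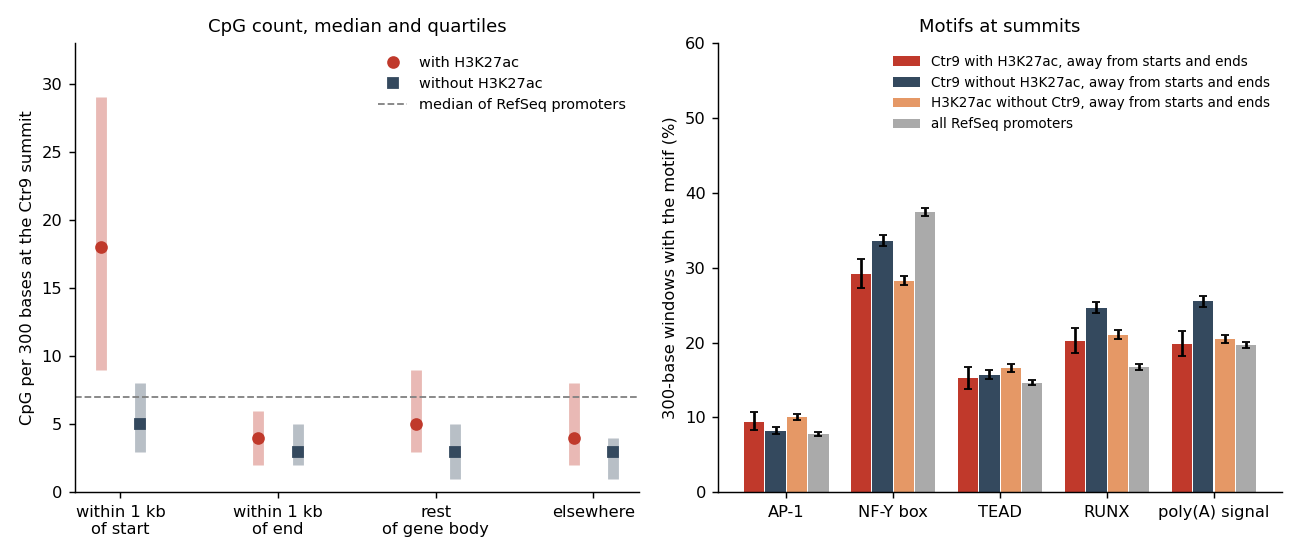
Left, CpG per 300 bases at Ctr9 summits by place, as medians (points) and middle 50% (bars), with the median of RefSeq promoters dashed; right, share of windows (%) with each motif away from starts and ends, with exact 95% intervals, beside promoters. The median at starts is 18 CpG with H3K27ac and 5 without.

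The study cloned NIH3T3 regions for reporter assays as H3K27ac-positive sites with or without Ctr9, so what they hold of either mark was set by that choice and is a description. Of 12 regions listed with Ctr9, 10 met a Ctr9 peak, at folds of 3.45 to 17.1, and each of the 10 met one with H3K27ac. The other 2, at Gm7247 and near Mief1, met no peak of either mark in the lists used here. The strongest was 65.3 kb upstream of Ppara (Ctr9 fold 17.1, H3K27ac fold 46.5). The 10 lay at Ppm1h, 1700011L22Rik, Sgpp1, Spaca6, Zmiz1, Zfp958, Ppara, Tcte2, Gtf3c6 and Mrpl45 by nearest gene. The 8 regions listed without Ctr9, nearest to Rgs3, Cebpb, Fth1, Foxn2, Fbxl17, Krt80, Nfkbia and Msrb3, met no Ctr9 peak and all met H3K27ac. Their H3K27ac folds were 13.8 to 25.8 (median 18.0), against 16.2 to 47.0 (median 31.7) at the 10, and these ranges overlap.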

How the data were processed

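ChIP-seq reads were aligned by the authors to mm10 with bowtie2 (2.3.5.1), filtered against the ENCODE blacklist, and peaks called per library with macs2 (2.2.6) at q 0.01. Whether an input library served as control is not given in the sources used here. The deposited peak lists hold fold enrichment (a ratio) at the summit and −log10 p and q. For RNA-seq, the authors deposited estimated counts and TPM per transcript from kallisto (0.46.1) on GENCODE M19. The NIH3T3 library summed to 2.88495e+07 estimated counts, and ChIP depth is not known from the lists.

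Overlaps (at least 1 bp), distances and exact intervals were computed in Python (3.11.15) using scipy (1.17.1), numpy (2.4.6) and pandas (2.3.3), and the overlap code was tested on simulated peaks. Figures used matplotlib (3.10.9). Genes were GENCODE M21 protein-coding genes. The members and lists were chosen with earlier results of these data known. Named genes were list members with Ctr9 (the 3 of highest TPM in full, except 1 gene that is not reported here), genes at the 8 strongest and 5 widest peaks of each class, the 5 genes with most peaks of each class, the genes named for NIH3T3 cells by the study, and those nearest to cloned regions. Fosl2, Fn1, Fos and Fosb came under the first rule.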

Additional observations from a re-analysis of the deposited data

How the results depend on the processing

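Of 27 alternatives, 15 kept the value, 12 moved it beyond its interval and 0 turned the order of the classes. The share with H3K27ac and the fibroblast gene count were not read for a turn, so the 0 does not cover them. The fibroblast count has no interval and was judged by the relative size of its change. For mRNA level, genes with any Ctr9 peak with H3K27ac, those of both classes included, were set against genes with peaks only without. Their medians were 21.0 and 13.6 TPM. Genes with peaks only with H3K27ac had 11.4 TPM, so the order read here depends on where the genes of both classes are placed. Counting a Ctr9 peak only where its summit lay in an H3K27ac peak gave a share of 18.5%, a median width of 466 bps with H3K27ac, and 53.9% at starts and 2.03% at ends. Keeping Ctr9 peaks with −log10 q of at least 5 gave a share of 24.4%, a width of 630 bps and a fold of 4.93. Distances of 500 bps gave 27.3% at starts and 2.64% at ends. The median mRNA level of genes with a Ctr9 peak with H3K27ac was 21.0 TPM, 35.7 with transcripts summed, 22.1 over genes above 0 TPM and 22.8 where gene regions reached 1 kb past each boundary. For the last 3 the alternative itself changes what is summed or which genes enter. The summit rule keeps only a part of the overlapping peaks, so the share with H3K27ac could only fall. Likewise 500 bps keeps only a part of the summits at starts, so the share there could only fall. For the others the cause was not tested.

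No paired analysis was possible because each group held 1 library, and no replicate was left out. A peak below the caller's threshold counts as absent, and the ChIP depth behind each list is unknown here. Wider gene regions take in peaks of neighbouring genes, and overlapping genes share peaks. Estimated counts of near-identical transcripts are split by kallisto.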

Other observations

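Ctr9 peaks outside protein-coding genes included starts of noncoding genes. Of the peaks elsewhere, 12.3% with H3K27ac (71 of 578) and 1.44% without (58 of 4015) had their summit within 1 kb of the start of a noncoding gene over 200 bps long. The strongest with H3K27ac were at Neat1 (fold 22.0, 12613 bps wide), 2410006H16Rik (15.2) and Gm26887 (13.2), and Malat1 had a fold of 11.8.

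Over all places the classes met Ctr9 of mESCs in overlapping shares, 38.8% with H3K27ac (37.4 to 40.2) and 39.2% without (38.5 to 39.9). At starts the share was lower with H3K27ac, 40.7% (38.7 to 42.8) against 53.3% (48.0 to 58.5) without, and these intervals do not overlap. At gene ends the shares were 76.3% and 69.3%, in bodies 32.9% and 31.8%, and elsewhere 37.2% and 42.8%. H3K27ac of mESCs was met by 48.3% of the peaks with NIH3T3 H3K27ac and by 0.795% of those without, and at starts by 67.2% and 3.31%.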
